A study of Homo sapiens with 2 samples.

Results

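Chromosome 11 carried 812 of the 9043 summits in a list of regions where DNA was recovered with the NUSAP1 protein from AsPC1 cells. The members were all listed regions on chromosome 11, each placed at its summit, the base with the most fragments. The chromosome was chosen by its measured summit density, the highest in the list, so its value of 6.01 summits per Mb (95% Poisson interval 5.61 to 6.44, counting error only) is a description and was not tested. The chromosome also holds LDHA, the lactate dehydrogenase gene that the series title links to NUSAP1. The data came from chromatin immunoprecipitation with sequencing (ChIP-seq) in AsPC1, an established line of pancreatic ductal adenocarcinoma cells, for which the labels name no treatment. One library came from chromatin, fixed with formaldehyde and sheared by sonication, that was pulled down with a commercial NUSAP1 antibody. The other was input chromatin without antibody, and only the regions called in the antibody library were used here. There were no replicates, so no value here has a spread between samples, and the only test of a single summit was the q of the authors' peak caller.

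NUSAP1 is a nucleolar and spindle-associated protein that binds microtubules and helps to organise them around chromosomes in mitosis. It is not known as a sequence-specific transcription factor with an established motif. Chromosome 11 is known for long clusters of olfactory receptor genes, for the imprinted segment and the beta-globin genes near the tip of its short arm, for a gene-rich inner long arm with MALAT1, NEAT1 and CCND1, and for very long neuronal adhesion genes further out on the long arm.

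The summits of chromosome 11 were supported by few fragments. Of the 812, 217 had 4 fragments at the summit, 297 had 5, 183 had 6 and 115 had 7 or more. Fold enrichment, the ratio of the summit to the caller's local background, ran from 2.34 to 5.56 with a median of 3.01. The caller's q was under 0.05 at 7 summits (0.862%, 95% Wilson interval 0.418 to 1.77), and it was 0.5 or more at 681. The share under 0.05 was 1.29% (1.07 to 1.56) on the other chromosomes, 0.811% on chromosome 3 and 1.33% on chromosome 6. In the whole list, which also holds summits off these chromosomes, it was 1.48%. Sequencing depth was unknown, and the number of fragments was worked out from the caller's fold and p.

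The strongest promoter summit of the chromosome lay at MRPL16, and the promoters of the protein-coding genes with a summit within 300 bp of an annotated start are shown where the summit falls inside the printed window, because they carry the bases under it. CPT1A, whose summit lay 290 bp into the gene and beyond that window, is not shown. The windows come from RefSeq on build GRCh38.p14 and run 5′ to 3′ on the gene's strand, from 250 bases before the start to 50 bases from it. Capitals mark matches on either strand to the GC box GGGCGG, the CCAAT box spelled by those letters, the TATA box TATAAA and the E-box CACGTG; none of these motifs contains another. They are MRPL16 (chr11:59810729-59811028, minus strand), OR9Q1 (chr11:58023631-58023930, plus), IFTAP (chr11:36594252-36594551, plus), RELA (chr11:65662867-65663166, minus), CCDC85B (chr11:65890423-65890722, plus) and PPP2R1B (chr11:111766340-111766639, minus).
MRPL16: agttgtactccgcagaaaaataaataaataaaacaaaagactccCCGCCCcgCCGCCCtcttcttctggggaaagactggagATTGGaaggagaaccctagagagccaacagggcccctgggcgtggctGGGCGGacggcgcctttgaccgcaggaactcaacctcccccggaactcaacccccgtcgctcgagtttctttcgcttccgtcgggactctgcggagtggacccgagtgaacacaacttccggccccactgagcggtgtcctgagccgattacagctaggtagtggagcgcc
OR9Q1: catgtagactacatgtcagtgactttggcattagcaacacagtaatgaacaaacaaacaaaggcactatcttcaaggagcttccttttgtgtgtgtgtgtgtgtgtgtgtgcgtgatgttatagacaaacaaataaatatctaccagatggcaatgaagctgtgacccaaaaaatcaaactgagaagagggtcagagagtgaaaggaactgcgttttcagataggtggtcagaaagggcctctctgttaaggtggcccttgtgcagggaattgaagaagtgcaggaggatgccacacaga
IFTAP: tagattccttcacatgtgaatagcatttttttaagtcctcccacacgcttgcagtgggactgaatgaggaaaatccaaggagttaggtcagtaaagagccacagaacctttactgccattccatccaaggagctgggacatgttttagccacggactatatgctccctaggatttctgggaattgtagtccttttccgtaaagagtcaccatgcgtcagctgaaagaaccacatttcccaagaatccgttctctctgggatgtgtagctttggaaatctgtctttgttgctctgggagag
RELA: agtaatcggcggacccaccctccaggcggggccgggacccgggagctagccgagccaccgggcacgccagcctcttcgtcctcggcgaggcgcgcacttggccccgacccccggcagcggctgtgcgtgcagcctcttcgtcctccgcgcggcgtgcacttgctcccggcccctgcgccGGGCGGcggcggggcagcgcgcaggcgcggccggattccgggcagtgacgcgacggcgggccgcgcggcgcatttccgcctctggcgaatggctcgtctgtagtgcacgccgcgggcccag
CCDC85B: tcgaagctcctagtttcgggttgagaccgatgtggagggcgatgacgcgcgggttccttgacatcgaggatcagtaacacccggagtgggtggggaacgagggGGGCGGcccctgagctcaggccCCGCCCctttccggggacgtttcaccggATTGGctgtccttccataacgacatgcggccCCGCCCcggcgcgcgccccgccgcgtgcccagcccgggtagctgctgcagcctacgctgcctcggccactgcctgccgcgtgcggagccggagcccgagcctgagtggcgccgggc
PPP2R1B: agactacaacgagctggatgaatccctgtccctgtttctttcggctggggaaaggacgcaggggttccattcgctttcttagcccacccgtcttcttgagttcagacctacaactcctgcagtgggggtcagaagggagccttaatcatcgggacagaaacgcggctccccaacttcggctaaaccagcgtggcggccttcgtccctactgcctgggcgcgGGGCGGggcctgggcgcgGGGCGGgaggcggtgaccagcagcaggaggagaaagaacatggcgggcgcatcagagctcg

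In these windows the summit fell on base 222 at MRPL16, 34 at OR9Q1, 88 at IFTAP, 168 at RELA, 268 at CCDC85B and 293 at PPP2R1B. The MRPL16 window held 3 matches to GGGCGG and 1 to CCAAT, and its summit lay 29 bp before the start, downstream of all of them. The CCDC85B window held the same numbers of matches, the PPP2R1B window held 2 GGGCGG matches within 29 bases before the start, and the RELA window held 1. The OR9Q1 and IFTAP windows held no match to any of the 4 motifs. They were also poor in the dinucleotide CG, with 2 and 5 copies, where the RELA window had 48 and the CCDC85B window 35. Over the 9 start windows of chromosome 11 that held a summit, 3 of them from long non-coding RNA genes, 5 contained GGGCGG (55.6%) and 2 contained CCAAT (22.2%). Among all 35116 windows of the table the shares were 45.0% and 34.6%. A match is a description of letters and does not show a site.

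MRPL16, which encodes a protein of the large subunit of the mitochondrial ribosome, had the highest fold enrichment of chromosome 11. Its peak (chr11:59810702-59810956) reached 5.56 on 10 fragments over a background of 0.977 fragments, with a q of 0.00158. Another mitochondrial ribosome gene, MRPL21, shared a summit with the helicase gene IGHMBP2, 94 bp beyond the upper end of MRPL21 and 35 bp inside the lower end of IGHMBP2. That summit had a fold enrichment of 3.90 on 14 fragments (q 0.0406) over a background of 2.85. The remaining 5 of the 7 mitochondrial ribosomal protein genes of the chromosome (MRPL11, MRPL17, MRPL23, MRPL48 and MRPL49) had no summit in the gene or within 1 kb. The share of 28.6% stands beside 204 of the 1297 protein-coding genes of the chromosome (15.7%). The list was drawn up with earlier results on these data known, so the count of 2 of 7 is no independent evidence.

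The other 5 summits with q under 0.05 lay away from protein-coding genes. At position 18985530 the fold was 5.26 on 8 fragments (q 0.0106), between the receptor genes MRGPRX1 and MRGPRX2, 46.1 and 68.9 kb away. At 25766800 it was 5.27 on 8 fragments (q 0.0105), inside the non-coding gene LINC02699 and 422 kb below ANO3. At 112309396 it was 4.99 on 9 fragments (q 0.0160), inside LINC02762 and 48.5 kb from PLET1. The backgrounds were 0.712, 0.708 and 1.01 fragments, where 0.708 was the lowest of the list. The last 2 lay in the long central stretch without protein-coding genes: position 52030750 had 18 fragments over 3.56 (fold 4.17, q 0.00167) and 54021246 had 68 over 25.6 (fold 2.59, q 3.76e-07), the smallest q of the chromosome at a fold below the chromosome's median. Their nearest protein-coding genes, both of olfactory receptors, lay 2048 and 582 kb away.

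Across the 29 protein-coding genes with a summit within 1 kb of an end or an annotated start, the median fold enrichment was 3.23, and 3 genes (MRPL16, MRPL21 and IGHMBP2) had a q under 0.05. At an end alone the count was 28 of 1297 protein-coding genes (2.16%), against 2.22% of the protein-coding genes of all chromosomes, a share near the background. Next after MRPL16 stood SLC39A13, a zinc transporter gene, with 4.06 (q 0.272) and CTSC, the gene of the protease cathepsin C, with 3.93 (q 0.418). OR9Q1, an olfactory receptor gene, had 3.84 (q 0.418). IFTAP, whose product works with intraflagellar transport, had 3.57 (q 0.664).

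RELA, which encodes the p65 subunit of NF-kappaB, had its summit 83 bp before one of its starts and 7 bp before the start of its divergent transcript RELA-DT, with a fold of 3.30 on 7 fragments (q 0.779). CCDC85B had a summit 17 bp into the gene (3.23, 10 fragments, q 0.509), and a further one just beyond its upper end that also lay 301 bp from FOSL1, an AP-1 transcription factor gene (2.87, 8 fragments, q 0.779). PPP2R1B, a scaffold subunit of protein phosphatase 2A, had 3.23 (q 0.779). The 3 genes RELA, CCDC85B and FOSL1 lie in the gene-rich inner long arm, and their summits stood on backgrounds of 1.42, 2.41 and 2.14 fragments, each higher than the median of 0.991 for the chromosome. Also among the 20 genes with the highest folds were GVQW3 with THAP12 (3.43), OR10A2 (3.39), OOSP4B (3.37), SAC3D1 (3.35), the tyrosinase gene TYR (3.28), TRIM64B (3.22), TMEM25 with TTC36 (3.18) and PLET1 (2.93), all with q of at least 0.5.

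LDHA (chr11:18394563-18408425) had no summit in the gene or within 1 kb, and its closest summit was 15.6 kb below it with 4 fragments and a q of 1. The 5 Mb window that holds LDHA, from 15 to 20 Mb, had 33 summits, the highest count of the 10 complete short-arm windows, which had a median of 20. Within 2000 kb of LDHA on either side there were 28 summits, 6.98 per Mb (Poisson interval 4.64 to 10.1), where the whole short arm had 4.17. Within 1000 kb there were 13, 6.46 per Mb, with an interval from 3.44 to 11 that includes the short-arm value. SOX6, a transcription factor gene of 772 kb, held 7 of the 33 (fold 2.51 to 4.68), or 9.07 per Mb of gene (3.65 to 18.7). The neuron navigator gene NAV2, of 776 kb, held 4 (5.15 per Mb, 1.40 to 13.2). The cell junction gene PLEKHA7, of 237 kb, held 3 (12.7 per Mb, 2.61 to 37.0). The part of long genes in the count of this window was not tested.

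**Figure D1:**
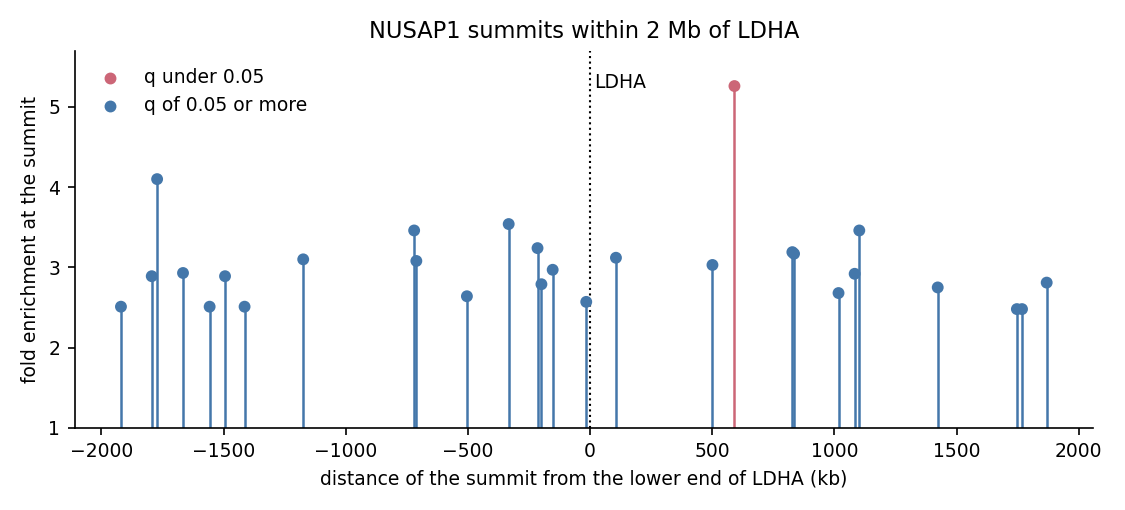
Fold enrichment (vertical axis, a ratio) of each of the 28 NUSAP1 summits within 2000 kb of LDHA, against their distance in kb from the lower end of the gene (horizontal axis). The summit at 591 kb, with a fold of 5.26, is the only one with q under 0.05, and the nearest summit, 15.6 kb below LDHA, has a fold of 2.57.

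Of the 7 summits within 500 kb of LDHA, 6 had 4 or 5 fragments. SAA2, a serum amyloid gene, held 1 with a fold of 2.97 (q 0.933), and TSG101, an ESCRT gene next to LDHC and LDHAL6A, held 1 with 3.12 (q 0.779). LDHC, the testis form of lactate dehydrogenase, was 33.4 kb from a summit and LDHAL6A was 21.3 kb from one. Further out, beyond the summit at 591 kb with a fold of 5.26, E2F8, a transcription factor gene of the cell cycle, held 1 (3.17, q 0.779), and a further summit lay 1.55 kb from it (3.19, q 0.779).

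Of 14 genes of lactate, pyruvate and neighbouring metabolism on chromosome 11, 2 had a summit in the gene or within 1 kb (14.3%), against 204 of the 1297 protein-coding genes of the chromosome (15.7%) and 13.6% of those of all chromosomes. CPT1A, the carnitine palmitoyltransferase that admits fatty acids to mitochondria, had 2, with folds of 4.13 (9 fragments, q 0.166) and 2.45 (5 fragments, q 1). The uncoupling protein gene UCP3 had 1 (3.67, q 0.519). The pyruvate carboxylase gene PC, the pyruvate dehydrogenase subunit genes PDHX and DLAT, the glycogen phosphorylase gene PYGM, the glucose 6-phosphate transporter gene SLC37A4 and TALDO1 had none, and their nearest summits lay 31.3, 61.7, 82.0, 13.3, 460 and 99.9 kb away.

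The short arm, which carries LDHA, had fewer summits per Mb than the long arm. It held 218 summits in 52.2 Mb, 4.17 per Mb (Poisson interval 3.64 to 4.77), and the long arm held 594 in 82.8 Mb, 7.18 per Mb (6.61 to 7.78). The long arm was thus 1.72 times as dense (exact interval 1.47 to 2.02, counting error only). The density of protein-coding genes was 8.54 per Mb on the short arm and 10.3 on the long arm. The boundary was set at position 52292802, in the middle of the longest central stretch without protein-coding genes, and that stretch of 4.62 Mb held 2 summits on either side of the boundary.

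Within the long arm the density was higher beyond 75 Mb. From the boundary to 75 Mb it was 4.27 per Mb (3.46 to 5.21), close to the short arm, and from 75 Mb to the end it was 8.27 (7.56 to 9.03). The inner part is the gene-rich one, with 20.3 protein-coding genes per Mb against 6.51 in the outer part. The division at 75 Mb was chosen after the window counts were seen. The classes by number of fragments are parts of the same counts, so they are no independent evidence of a difference at that division. Summits of 4 or 5 fragments had 2.85, 2.33 and 5.19 per Mb in the short arm, inner long arm and outer long arm. Those of 6 fragments had 0.785 (0.563 to 1.07), 0.881 (0.538 to 1.36) and 2.03 (1.69 to 2.42) per Mb. Summits of 7 or more fragments stood at 0.536 (0.356 to 0.775), 1.06 (0.677 to 1.57) and 1.05 (0.806 to 1.34) per Mb. The inner value rested on the window from 65 to 70 Mb, which held 14 of its 24 such summits: without that window it was 0.565 (0.271 to 1.04). By number of fragments, the long arm as a whole was 1.41 times as dense as the short arm at 4 (1.05 to 1.91), 1.65 times at 5, 2.18 times at 6 (1.53 to 3.17) and 1.96 times at 7 or more (1.27 to 3.12). Summits with a fold of at least 4 turned the order of the arms around, at 0.517 per Mb on the short arm and 0.387 on the long arm, with intervals that overlapped.

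**Figure D2:**
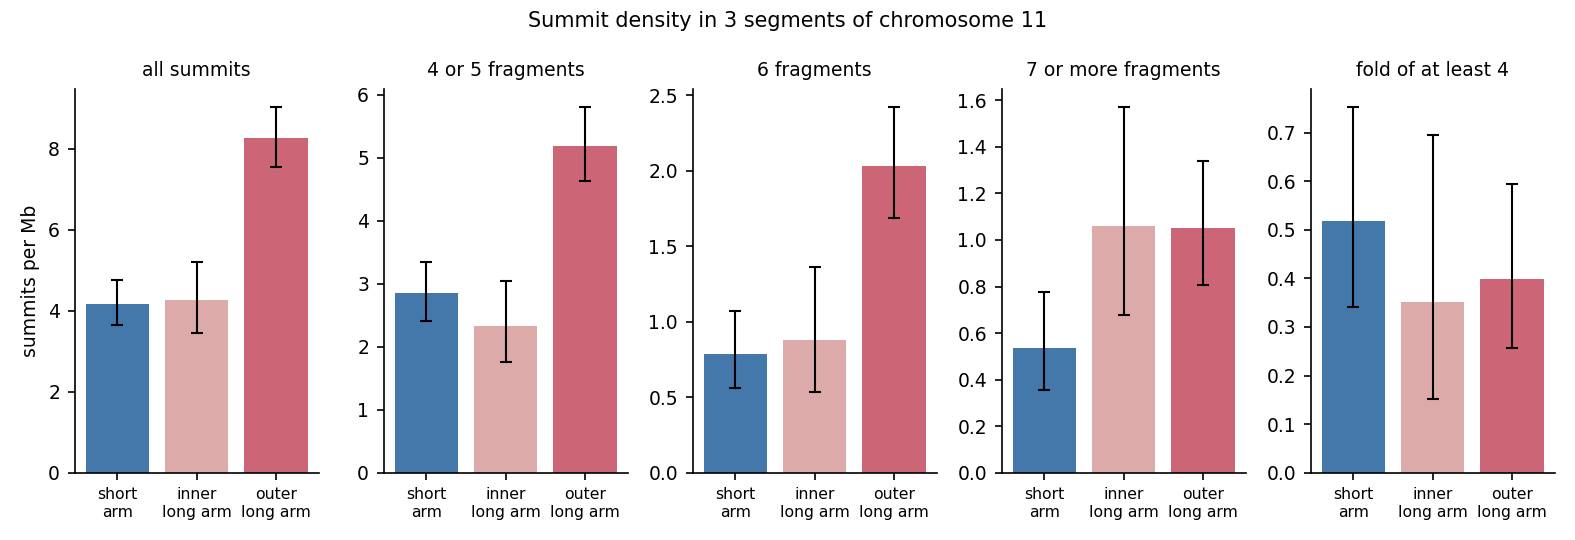
NUSAP1 summits per Mb (vertical axes) in the short arm, the inner long arm up to 75 Mb and the outer long arm, for all summits, those of 4 or 5 fragments, of 6 fragments, of 7 or more fragments and with a fold of at least 4; bars are densities and error bars 95% Poisson intervals. The outer long arm stands above the others for all summits (8.27 against 4.17 and 4.27), as it does at 6 fragments (2.03 against 0.785 and 0.881). At 7 or more, the inner and outer long arm have 1.06 and 1.05.

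The caller's background moved with the arms as well. At summits of 5 fragments, 16 of 82 on the short arm stood at the lowest background (19.5%), against 1 of 27 in the inner long arm (3.70%) and 3 of 188 in the outer long arm (1.60%). The median background at 5 fragments was 0.949, 1.02 and 0.991 fragments. A lower background raises the fold reached by the same number of fragments, and the part of the background in the arm difference was not tested.

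In windows of 5 Mb, the counts ran from 7 to 55. The 10 complete windows of the short arm held 17 to 33 summits. The 16 of the long arm held 21 to 55, with 23, 21, 23 and 25 in the inner 4 and 26 to 55 in the outer 12. The densest windows were 110 to 115 Mb with 55 summits (Poisson interval 41.4 to 71.6), 130 to 135 Mb with 51 and 125 to 130 Mb with 50. The sparsest were 50 to 55 Mb, at the arm boundary, with 7 (2.81 to 14.4), 35 to 40 Mb with 17, and 0 to 5 Mb with 19, a count also found at 20 to 25 and 45 to 50 Mb. Next to the densest window, the one from 105 to 110 Mb held 26 (17.0 to 38.1).

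**Figure D3:**
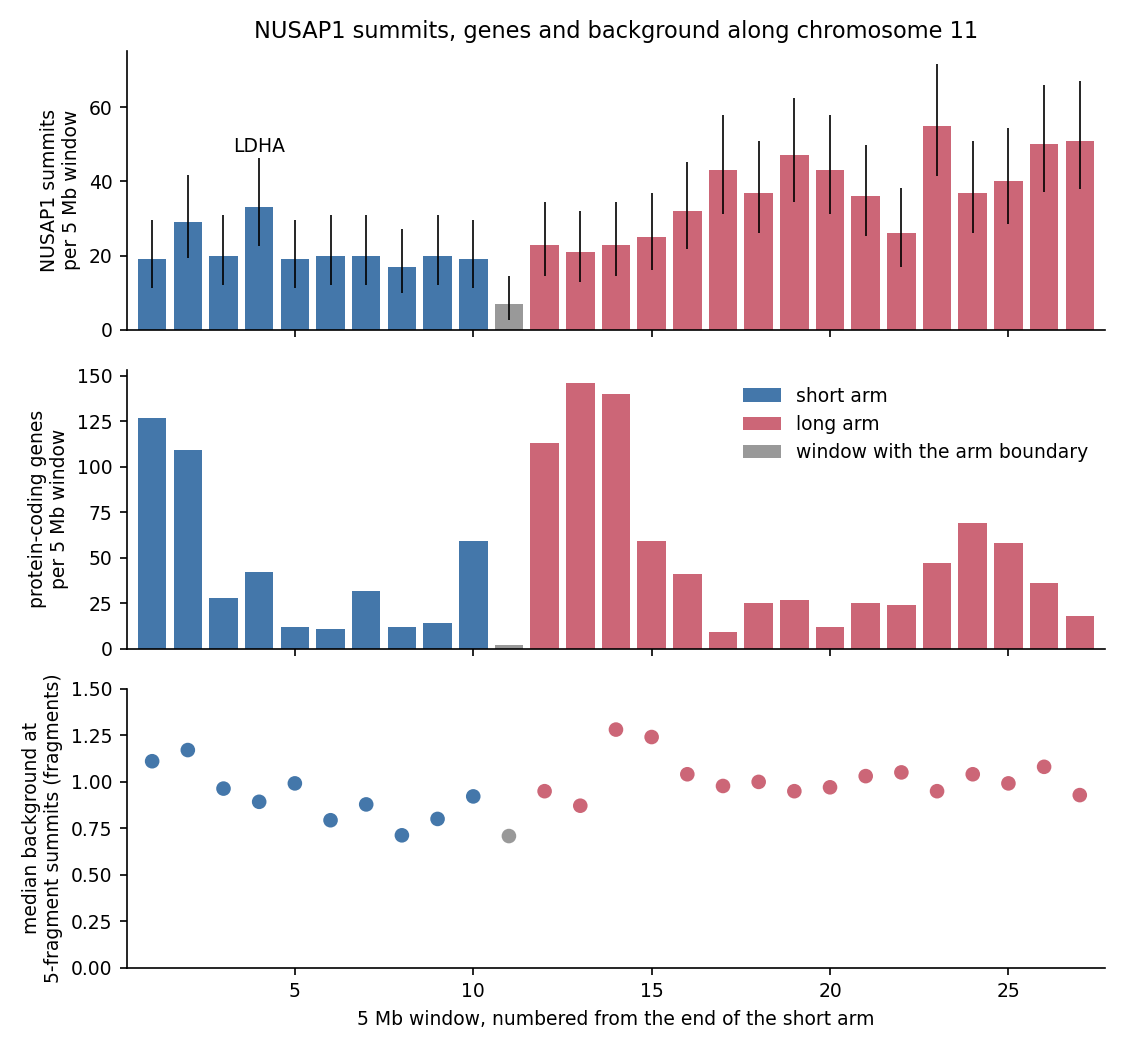
Summits (top, with 95% Poisson intervals), protein-coding genes (middle) and median background at summits of 5 fragments (bottom, in fragments) in the 27 windows of 5 Mb, numbered from the end of the short arm and coloured by arm. Summit counts stay between 17 and 33 in the complete short-arm windows and reach 55 in the outer long arm, while genes peak at 146 in a window with 21 summits.

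On the long arm, the gene-rich windows were not the summit-rich ones. The windows with the most protein-coding genes, 60 to 65 Mb with 146 and 65 to 70 Mb with 140, had 21 and 23 summits, while the window from 80 to 85 Mb had 9 genes and 43 summits. Over the 16 long-arm windows, summits and protein-coding genes had a Pearson r of -0.67 and a Spearman rho of -0.58. Over the 10 short-arm windows r was 0.30 and rho 0.21, and over all 27 windows r was -0.17 and rho 0.04. With the share of the window covered by protein-coding genes, r was 0.63 and rho 0.78 on the short arm and -0.17 and -0.19 on the long arm. Neighbouring windows share one library and its background, so these are descriptions of this list. The window from 65 to 70 Mb stood apart in fragments: 14 of its 23 summits had 7 or more (60.9%), against 14.2% on the whole chromosome, and its median background was 1.42.

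In the densest window, from 110 to 115 Mb, 14 protein-coding genes held a summit. NXPE2 held 6, the neural cell adhesion gene NCAM1 held 3, and BTG4 and NXPE4 held 2 each. NXPE4 lies inside the span of NXPE2, so its 2 summits are among the 6. From 130 to 135 Mb the neurotrimin gene NTM held 13 and OPCML, its relative of the IgLON adhesion family, held 9. From 125 to 130 Mb the adhesion gene KIRREL3 held 11 of the 50. In the sparse windows, CD44, RAG2 and SLC1A2 held 1 each between 35 and 40 Mb, and MMP26 held 5 of the 19 summits between 0 and 5 Mb.

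The 16 protein-coding genes over 500 kb held 122 of the 384 summits counted in gene bodies, 8.47 per Mb of gene (7.04 to 10.1), and 15 of the 16 had at least 1. The 9 of them on the long arm held 10.7 per Mb (8.66 to 13.1) and the 7 on the short arm 4.80 (3.13 to 7.03). All of the 9 but SHANK2 lie beyond 75 Mb, where all sequence held 8.27 per Mb, and the whole short arm held 4.17. The part of position in the difference between long and short genes was not tested. Genes of 100 to 500 kb held 5.59 per Mb (4.70 to 6.59). Genes of up to 100 kb held 4.99 per Mb (4.14 to 5.95), and 107 of 1156 had a summit (9.26%). Counts over overlapping genes include a summit for each gene.

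DLG2, a scaffold gene of the postsynapse and at 2173 kb the longest of these, held 25 summits, 11.5 per Mb (7.44 to 17.0), with folds of 2.46 to 4.43. The atypical cadherin gene FAT3 held 12 in 672 kb (17.9 per Mb, 9.23 to 31.2), KIRREL3 held 11 in 580 kb (19, 9.47 to 33.9) and the teneurin gene TENM4 12 in 788 kb (15.2, 7.87 to 26.6). NTM held 13.5 per Mb and OPCML 8.05. Long genes of the same kind could be sparse: CNTN5, a contactin gene of 1338 kb in the outer long arm, held 4 (2.99 per Mb, 0.815 to 7.65), and LRRC4C, a synaptic adhesion gene of 1345 kb on the short arm, held 3 (2.23). SBF2, of 526 kb on the short arm, held none.

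The other genes among the 10 with the most summits were SOX6, GRAMD1B, NXPE2 and SHANK2. GRAMD1B, a sterol transfer gene, held 6 in 269 kb (22.3 per Mb, 8.17 to 48.5), and the postsynaptic scaffold gene SHANK2 held 6 in 785 kb (7.64). None of the summits in any of these 10 genes had q under 0.05. The smallest was 0.0857, in SOX6, followed by 0.107 in KIRREL3 and 0.146 in DLG2.

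**Figure D4:**
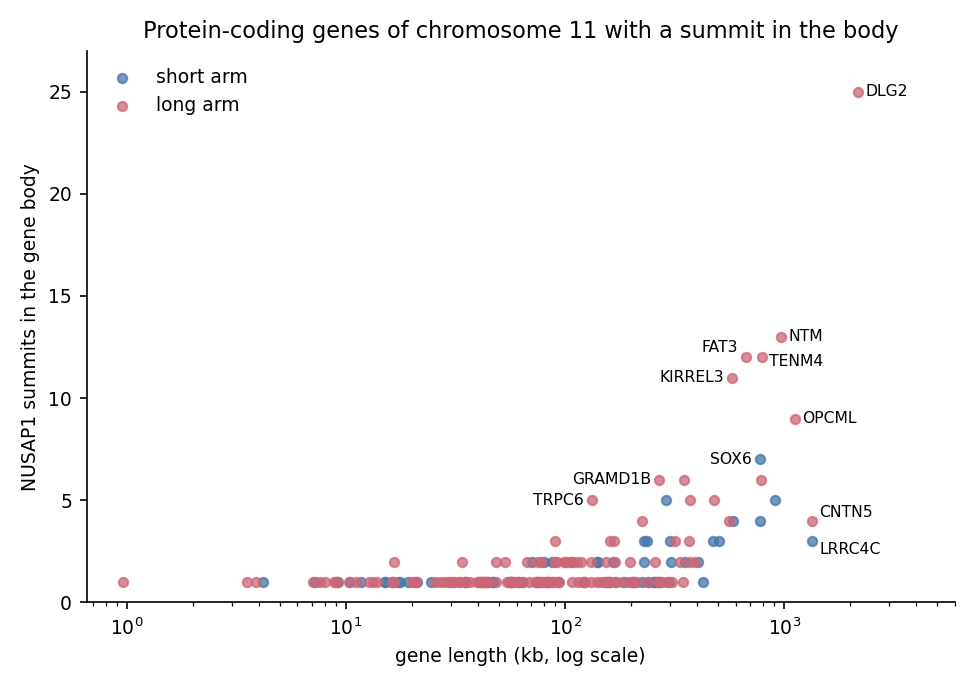
Number of NUSAP1 summits in the body of each of the 196 protein-coding genes with at least 1 (vertical axis) against gene length in kb (horizontal axis, log scale), coloured by arm. DLG2 has 25, NTM, FAT3, TENM4 and KIRREL3 have 11 to 13, and CNTN5 and LRRC4C, of 1338 and 1345 kb, have 4 and 3.

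Runs of neighbouring summits occurred on the long arm. With neighbours at most 20 kb apart and at least 3 summits, there were 12 runs holding 42 summits, 5.17% of the chromosome's (3.85 to 6.92). On chromosome 3 such runs held 5.07% of the summits, on chromosome 6 2.44% and on all other chromosomes together 3.35%. Runs at a fixed distance become more frequent with summit density, for which chromosome 11 was chosen. These shares were not adjusted for density. All 12 lay on the long arm, the innermost from position 71993749, and none on the short arm, where the median distance between neighbours was 163 kb, against 78.1 kb on the long arm. With 50 kb allowed, there were 55 runs, 8 of them on the short arm.

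The largest run had 5 summits in 69.5 kb of TRPC6, a cation channel gene, with folds of 3.99, 2.89, 2.48, 3.52 and 2.58 on 4 to 7 fragments. Runs of 4 lay inside KIRREL3, in 7.76 kb between IL10RA and TMPRSS13, in 28.9 kb near ARHGAP20 and in 35.9 kb near NCAM1. The middles of the last 2 runs were 90.3 and 106 kb from those genes. The shortest run had 3 summits in 7.59 kb of TECTA, a gene of the inner-ear tectorial membrane, and contained the highest fold of any run, 4.08 (q 0.364). The innermost run crossed RNF121, IL18BP and NUMA1, the gene of a spindle pole protein. DLG2, GRAMD1B and the non-coding gene DISC1FP1 held further runs of 3. A run of 3 at APLP2 had only its last summit in the gene and its middle 11.8 kb below it, and 1 had its middle 678 kb from ETS1. No summit of a run had more than 7 fragments or a q below 0.364.

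By location, the summits of chromosome 11 followed the share of sequence. Inside protein-coding or long non-coding RNA genes lay 429 summits (52.8%) and outside them 340 (41.9%). Within 1 kb of an end of such a gene lay 43 (5.3%, Wilson interval 3.96 to 7.06), where 5.41% of the chromosome's sequence lies. On the other chromosomes the share was 7.11% (6.57 to 7.68) with 4.36% of the sequence. If the summits of each 5 Mb window were spread evenly within it, 43.0 would be expected at gene ends on chromosome 11, a ratio of 1.00 (Poisson interval 0.724 to 1.35). The same ratio was 1.52 (1.40 to 1.64) on the other chromosomes, 1.37 (1.03 to 1.79) on chromosome 3 and 1.57 (1.19 to 2.02) on chromosome 6. No test of these differences was made. The intervals of chromosomes 11, 3 and 6 overlap.

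The share at gene ends was also taken by number of fragments, with no test. On chromosome 11, 16 of 514 summits of 4 or 5 fragments lay at a gene end (3.11%, ratio 0.618, 0.353 to 1.00), 13 of 183 with 6 fragments (7.10%, ratio 1.37) and 14 of 115 with 7 or more (12.2%, ratio 1.85, 1.01 to 3.11). On the other chromosomes the ratios were 1.29 (1.16 to 1.44), 1.51 and 2.82 (2.35 to 3.36). Annotated starts were given for 953 of the 1297 protein-coding genes. Within 1 kb of a start lay 21 summits of chromosome 11 (2.59%, 1.70 to 3.92), where 2.26% of its sequence lies. On the other chromosomes the share was 4.54% (4.11 to 5.01) with 1.82% of the sequence. It was 3.65% on chromosome 3 and 3.99% on chromosome 6, with 1.76% and 1.95% of the sequence. The 21 summits served 13 protein-coding and 11 long non-coding RNA genes. Of these 24 genes, 21 were on the long arm, and 13 had the summit before the start and 11 after it. The long arm held 594 of all 812 summits and 851 of the 1297 protein-coding genes.

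**Figure D5:**
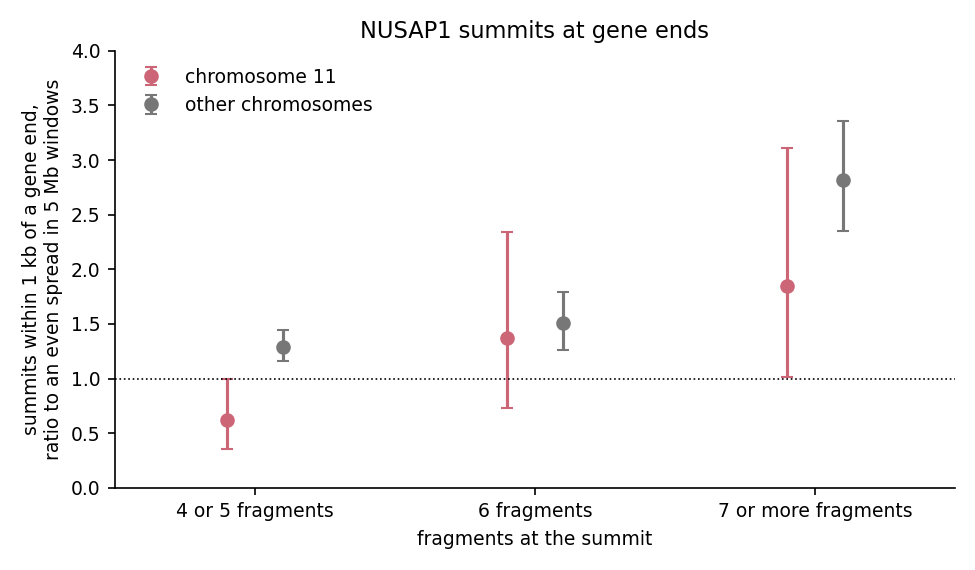
Summits within 1 kb of a gene end, as a ratio to the number given by an even spread of the same summits within 5 Mb windows (vertical axis), by fragments at the summit (horizontal axis), for chromosome 11 and all other chromosomes; error bars are 95% Poisson intervals. For chromosome 11 it is 0.618 in the lowest class and 1.85 in the highest, and for the other chromosomes 1.29 and 2.82.

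Of 14 genes in the 11q13 segment that is often amplified in cancers, 6 had a summit (42.9%): the cyclin D1 gene CCND1 (2.93, q 0.779), ANO1 with 4, SHANK2 with 6, PPFIA1 with 1, and MRPL21 with IGHMBP2, which share 1 summit. The share over all protein-coding genes was 15.7%. The members with a summit were SHANK2 (785 kb long), ANO1 (224), PPFIA1 (114), IGHMBP2 (36.7), CCND1 (13.3) and MRPL21 (12.6). The median length of all 14 was 12.9 kb against 14.6 kb for all protein-coding genes. The part of gene length in the share was not tested. The list was drawn up with earlier results on these data known, so the count of 6 of 14 is no independent evidence. FGF3, FGF4, FGF19, FADD and CTTN had none. Of 14 genes in the 11q22 segment, 3 had one (21.4%), namely TRPC6, the progesterone receptor gene PGR with 2 (up to 3.59, q 0.623) and the Hippo effector gene YAP1 with 1 (2.97, q 0.863). None of the 9 matrix metalloproteinase genes listed there had a summit.

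Of 32 cancer genes, 13 had a summit (40.6%), against 15.7% of all protein-coding genes of the chromosome. The median length of the 32 was 56.2 kb against 14.6 kb, and the part of length in the share was not tested. ZBTB16, a transcriptional repressor gene fused in leukaemia, had 2 with a fold of up to 4.32 (q 0.186). CARS1, a cysteinyl-tRNA synthetase gene, had 1 with 3.78 (q 0.396), and MAML2, a Notch coactivator gene, had 3 with up to 3.70 (q 0.488). ATM, the DNA damage kinase gene, had 1 (2.74, q 1), and CD44, the hyaluronan receptor gene, had 1 (3.30, q 0.779). HRAS, WT1, MEN1, KMT2A and CBL had none.

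Of 12 mitosis and spindle genes found on chromosome 11, 4 had a summit (33.3%, against 15.7% of all protein-coding genes), and the median length of the 12 was 55.7 kb against 14.6 kb. Those with a summit were NUMA1 with 2 (up to 3.49, q 0.753), the chromosomal passenger gene INCENP (3.52, q 0.753), the centriole gene CEP164 (3.54, q 0.706) and CCDC15 (3.88, q 0.418). KIF18A, CKAP5, ZW10, CEP57 and CDCA5 had none.

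The other lists are given beside the same 15.7% of all protein-coding genes. Of 168 olfactory receptor genes, with a median length of 1.1 kb, 5 had one (2.98%): OR51B5 and OR56A3 with 2 each, OR10A2, OR9Q1 and OR8D1. The 6 beta-globin cluster genes, the 4 secreted mucin genes of 11p15 (MUC2, MUC5AC, MUC5B and MUC6), the 4 apolipoprotein genes of 11q23, the 6 genes around the fatty acid desaturases and the 11 KRTAP5 keratin-associated genes had none. Their median lengths were, in that order, 1.60, 37.4, 2.83, 18.0 and 1.16 kb, against 14.6 kb for all protein-coding genes. Of the 319 protein-coding genes of up to 5 kb, 2.82% had a summit within 2 kb, a wider window than the 1 kb used for the lists. At 2 kb the share of all protein-coding genes was 16.9%. Of 15 genes of the imprinted segment, 3 had one (20%): TSPAN32 (3.30, q 0.779), the potassium channel gene KCNQ1 with 2 (up to 2.87, q 1) and its antisense transcript KCNQ1OT1, whose summit also lies in KCNQ1. H19, IGF2 and CDKN1C had none. TRIM genes had 3 of 15 (20%), namely TRIM22, TRIM29 and TRIM49, while TRIM64B was not on the list. SLC22A genes had 1 of 8 (12.5%), SLC22A10. The imprinted, TRIM and SLC22A shares were near that of all genes. MS4A genes had 1 of 16 (6.25%), MS4A15, and serum amyloid genes 1 of 3, SAA2. In the list around MALAT1, 2 of 9 had one (22.2%): TUT1, which uridylates small RNAs (3.99, q 0.418), and MALAT1, whose summit lay 0.70 kb outside the gene (2.34, q 1). It had the lowest fold of the chromosome, on 8 fragments over a background of 2.85.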

How the data were processed

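NUSAP1 ChIP-seq was made in AsPC1 cells, with 1 immunoprecipitate and 1 input library. Per the submitters' processing notes, the tools were MACS2 2.1.0, Bowtie 1.1.2, Trimmomatic 0.33 and bcl2fastq 2.17, and the build was hg38; caller settings, and which control the caller used, are not given in the sources used here. The deposited narrowPeak list of the immunoprecipitate holds 9043 summits. Its deposited columns are a display score, the fold enrichment as a ratio to the caller's local background, -log10 p and -log10 q from the authors' caller, and the offset of the summit in bp. No summit had a p above 0.00497. Depth is unknown, so intervals cover counting error only.

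Fragments and background at each summit were worked out from fold, read as (fragments + 1) over (background + 1), and the Poisson p. A whole number of fragments gave -log10 p within 0.001 at all 9043 summits. All of 500 summits simulated with the same formula were recovered, which checks the calculation only and not how the caller counted. Genes came from a RefSeq table of GRCh38.p14, keeping 3162 genes placed on chromosome 11, 1297 of them protein-coding, and starts from 1893 RefSeq promoter windows. Density used the span of genes and summits. Wilson, exact binomial and exact Poisson intervals are at 95%. Members and lists were chosen with earlier results of these data known. Genes are named by a rule: metabolic genes with LDHA, genes at summits with q under 0.05, the 20 highest folds at an end or start, the 6 largest runs and 3 densest and 3 sparsest windows, the 10 genes with most summits, and up to 4 members per list. Further list members, the genes near LDHA, members without a summit and CNTN5, LRRC4C and SBF2 were named after their values were seen. Promoters were shown for up to 6 genes. Computation used scipy 1.17.1, pandas 2.3.3 and numpy 2.4.6 in Python 3.11.15, with figures from matplotlib 3.10.9.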

Additional observations from a re-analysis of the deposited data

How the results depend on the processing

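Stricter limits keep fewer summits by construction: chromosome 11 kept 59 of 812 at a fold of at least 4, 115 at 7 or more fragments and 392 in the upper part by -log10 q, and 42 list genes with a summit became 17 at 7 or more fragments. The ratio of the long to the short arm, 1.72, was 0.748 (0.434 to 1.30) at a fold of at least 4, and between 1.69 and 1.96 under the other planned or added settings. Classes of 4, 5 and 6 fragments gave 1.41, 1.65 and 2.18, and summits inside genes 1.59. Fold at a given number of fragments depends on the background, and the cause was not tested. The densest window, 110 to 115 Mb at 11 summits per Mb, held 6 summits of 7 or more fragments; at that limit the densest window was another, 65 to 70 Mb, at 2.80 per Mb. Without it, summits of 7 or more fragments in the inner long arm fell from 1.06 to 0.565 per Mb. The 12 runs became 2 at 10 kb, 55 at 50 kb and 5 with at least 4 summits. The share at gene ends, 5.3%, was 3.94% at 500 bp, 19.3% at 5 kb and 12.2% at 7 or more fragments. The 7 summits with q under 0.05 became 3 at q under 0.01, 11 at q under 0.1 and 4 on a background under 3 times the lowest. The settings without the boundary window or the window from 65 to 70 Mb, and the segments, were added after the data were seen. No paired analysis was possible because there is 1 library per group.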

Other observations

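On chromosome 11, of 184 genes of microRNAs, small nucleolar, small nuclear and transfer RNAs and similar, 3 had a summit within 2 kb (1.63%). The same window gave 16.9% of all 1297 protein-coding genes and 2.82% of the 319 of up to 5 kb. The median length of the small RNA genes was 0.083 kb. MIR4491 lay 867 bp from a summit with a fold of 2.89 on 6 fragments (q 0.944), MIR3920, inside TRPC6, lay 1640 bp from another of the same fold, and the MALAT1-derived small RNA MASCRNA lay 1042 bp from the MALAT1 summit. Summits came within 1 kb of each other in 9 pairs, 2 of them on the short arm, between 523 and 994 bp apart.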
